A study of Mus musculus with 10 samples.

Results

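The genes described here build ribosomes: 35 mouse genes chosen by name, for nucleolar proteins, subunits of RNA polymerase I and 3 enzymes of polyamine and pyrimidine synthesis. They were looked up on Affymetrix mouse whole-genome arrays, and each gene was represented by its brightest probe set over the 10 arrays. Of the 35, 34 were found among the 18194 genes with a probe set, and Npm3 was not analysed here. All 34 lay above the array median on every array, so all of them passed the filter that left 11993 genes for testing.

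Murine leukemia stem cell lines were cultured with serum and stem cell factor, and each sample has 1 array. RH-RAS lines coexpress DNMT3A carrying the R882H mutation and NRAS carrying the G12D mutation, and 4 independently derived lines were profiled untreated. For lines 1 and 3 there is a second array each, after 1 µM SGC0946 for 4 days. This compound inhibits Dot1l, the enzyme that methylates a lysine in the core of histone H3. The other samples, all without inhibitor, are progenitors transformed by a fusion gene: 1 MLL-AF9 line and 3 NUP98-JARID1A lines. The sources used here do not give the promoters that drive the transgenes or any vehicle in the untreated cultures. Values are log2 intensities, so a difference of 1 is a doubling, and levels are compared only within a probe set.

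Ribosomes are built in the nucleolus. RNA polymerase I transcribes a long precursor of the ribosomal RNAs, small nucleolar ribonucleoproteins (snoRNPs) guide its chemical modification, and helicases, chaperones and assembly factors fold, cut and dress it into the small and large subunits. Many of these genes are known targets of the transcription factor MYC, and growing leukemic and progenitor cells express them strongly.

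Promoter sequence was taken from RefSeq (build GRCm38.p6) for 28 of the 34 genes. Npm1, Fbl, Rrp12, Bop1, Rrs1 and Srm had no entry. The 100 bases just before the start of each gene are printed for members that the comparisons below turn on, for Nop56 as the partner of Nop58, and for Nop2 and Wdr74, which hold the motifs searched for. They run 5′ to 3′ along the gene, and capitals mark a motif.
Ddx21: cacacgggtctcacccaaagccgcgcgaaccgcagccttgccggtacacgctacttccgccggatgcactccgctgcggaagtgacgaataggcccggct
Nop58: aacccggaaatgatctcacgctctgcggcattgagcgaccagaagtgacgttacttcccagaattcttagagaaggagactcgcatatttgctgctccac
Nop56: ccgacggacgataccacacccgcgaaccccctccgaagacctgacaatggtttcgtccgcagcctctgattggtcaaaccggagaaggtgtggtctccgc
Nop16: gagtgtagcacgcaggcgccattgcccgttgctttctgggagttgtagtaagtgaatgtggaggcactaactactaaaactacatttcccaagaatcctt
Odc1: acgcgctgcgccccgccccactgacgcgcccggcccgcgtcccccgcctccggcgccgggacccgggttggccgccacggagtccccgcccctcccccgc
Noc2l: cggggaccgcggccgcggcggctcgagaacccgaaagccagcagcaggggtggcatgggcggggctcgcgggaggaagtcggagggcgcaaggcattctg
Nop2: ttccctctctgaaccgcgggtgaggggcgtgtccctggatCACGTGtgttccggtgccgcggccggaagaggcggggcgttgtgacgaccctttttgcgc
Wdr74: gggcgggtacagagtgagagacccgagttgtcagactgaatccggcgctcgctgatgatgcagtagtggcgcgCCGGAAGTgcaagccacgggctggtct

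These stretches lie at chr10:62602299-62602398 (minus strand) for Ddx21, chr1:59684906-59685005 (plus strand) for Nop58, chr2:130274312-130274411 (plus strand) for Nop56 and chr13:54590075-54590174 (minus strand) for Nop16. Those of the other four are chr12:17544773-17544872 for Odc1, chr4:156235910-156236009 for Noc2l, chr6:125131783-125131882 for Nop2 and chr19:8735739-8735838 for Wdr74, all on the plus strand. Over the 250 bases before the start, on both strands, the letters CACGTG (the E-box that MYC is known to bind) occurred in 1 of the 28 members (3.6%). That member was Nop2, where the motif begins 60 bases before the start, and CACGTG occurred in 9.9% of the tested genes with an entry and 6.9% of all genes in the table. The letters CCGGAAGT (bound by ETS family factors) occurred in 4 of 28 (14.3%), which were Wdr74, Polr1c, Gar1 and Nhp2, against 6.6% of tested genes and 3.2% of all. No member held both. Median GC content was 60.2% in the members and 59.6% in the tested genes. None of the 8 genes with an entry that passed a test between NUP98-JARID1A and RH-RAS held either motif in this window.

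Correlation between arrays over all genes ran from 0.9971 to 0.9978 among untreated RH-RAS lines 1 to 3 and from 0.9933 to 0.9942 between line 4 and those lines. The summed marker levels of line 4 stood apart too: its monocyte and macrophage markers (8 genes) averaged 8.45 against 6.98 to 7.03 in lines 1 to 3, and its T and NK markers (6 genes) 6.86 against 7.77 to 7.86. Markers of stem and progenitor cells (6 genes, Kit among them) lay above the array median on every array. In bulk RNA, fewer cells of a type and less RNA per cell cannot be told apart. The comparisons below share arrays: untreated RH-RAS lines are the reference for SGC0946, for NUP98-JARID1A and for MLL-AF9, and the NUP98-JARID1A lines serve as a reference for MLL-AF9 as well.

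After SGC0946, 1 of the 34 members fell and none rose. The one that fell was Odc1, ornithine decarboxylase, the first enzyme of polyamine synthesis, which dropped by 0.40 ± 0.09 on the log2 scale (SE, lines 1 and 3, 1.32-fold, limma adjusted p = 0.0346). The other 33 did not pass the test, with values from -0.36 to 0.40, and 4 members had an unadjusted p under 0.05 (Rrp12, Utp20, Noc2l and Odc1). Among all genes tested, 6.84% rose and 5.12% fell, against 0 and 2.94% of the members. The median change of the members was -0.04 and that of all genes 0.02. With the line number as a block, which pairs each treated array with its own untreated line, no member passed (Odc1 adjusted p = 0.0662, range over 15 alternatives 0.00855 to 0.209). Leaving out any of the 4 arrays of lines 1 and 3 also ended the call (adjusted p from 0.141 to 0.209).

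Other genes moved far more in the same cells. Monocyte and macrophage markers rose in 8 of 8 (array means 10.92 and 11.05 after treatment, 6.98 to 8.45 in the untreated lines). Stem and progenitor markers fell in 5 of 6 (10.11 and 10.20 against 11.43 to 11.64), among them Kit, the receptor for stem cell factor, which fell by 1.98 ± 0.19 (SE, adjusted p = 0.00347, 0.0537 without treated line 3). T and NK markers fell in 2 of 6, which were named after their values were seen. Gzma fell by 5.25 ± 0.68 (SE, adjusted p = 0.0061) and Cd3g fell by 4.19 ± 0.66 (SE, adjusted p = 0.011), with array means of 5.87 and 5.88 against 6.86 to 7.86. Myc fell by 0.53 ± 0.13 (SE, adjusted p = 0.0382, 0.0727 with the block), from 11.84 and 11.94 in lines 1 and 3 to 11.40 and 11.32, and its call was lost without any one of the arrays of lines 1 and 3 (adjusted p from 0.139 to 0.224). Mycn had a difference of -0.52 ± 0.23 (SE) that did not pass (adjusted p = 0.205), though the mean of its probe sets did (-2.80, adjusted p = 0.0142). Of 15 proliferation markers 1 rose (Birc5, named after its value was seen) and none fell, with Mki67 at -0.15 ± 0.10 (SE, adjusted p = 0.401). Their part in the change of Odc1 was not tested.

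Between NUP98-JARID1A lines and untreated RH-RAS lines the members split in both directions. Of the 34, 7 were higher in NUP98-JARID1A (Nop16, Polr1a, Polr1b, Rrp12, Srm, Wdr12 and Bop1), 5 were lower (Ddx21, Nop58, Ddx18, Nop56 and Npm1), and 22 did not pass. The furthest apart were Ddx21, a nucleolar RNA helicase (2.63-fold lower, adjusted p = 0.00164), Nop58, a core protein of box C/D snoRNPs (2.12-fold lower, adjusted p = 0.000826), and Nop16, a large subunit factor (1.63-fold higher, adjusted p = 0.00109). Of all genes tested 32.5% were higher and 18.5% lower, against 20.6% and 14.7% of the members, so neither share exceeded the background, and the median difference was 0.13 in the members and 0.10 in all genes.

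The split depends on the scaling of the arrays. The median of the tested genes was 0.252 higher on the NUP98-JARID1A arrays than on the RH-RAS arrays, and once each array's median was subtracted, 2 members were higher (Nop16 and Polr1a) and 9 lower. The added 4 were Rrs1 at -0.59 (adjusted p = 0.00935), Wdr43 at -0.43 (0.0236), Odc1 at -0.41 (0.00491) and Gnl3 at -0.39 (0.00789), which without the subtraction had adjusted p-values from 0.0838 to 0.265. All genes then split into 2344 higher and 4306 lower, in place of 3897 and 2216. Polr1b, Srm, Rrp12, Wdr12 and Bop1 lost their calls (adjusted p from 0.108 to 0.333). None of the 12 members that passed changed direction under cyclic loess. Under the subtraction none could, since it lowered every difference by 0.252 and the smallest among the higher members was 0.39 (Bop1).

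Cell type markers also differed between these lines. Late neutrophil markers were higher in NUP98-JARID1A in 8 of 8 (array means 9.43 to 12.53 against 4.59 to 4.76), monocyte and macrophage markers were higher in 5 and lower in 1 of 8, and 8 of 15 proliferation markers were lower (11.55 to 11.76 against 11.95 to 11.98). Of the 6 stem and progenitor markers Kit was higher by 1.68 ± 0.19 (SE, adjusted p = 0.000392), Flt3 was lower (-2.07 ± 0.26 SE, adjusted p = 0.000547) and the other 4 did not pass, with a list median of -0.01. In the T and NK list 2 of 6 were lower, Gzma (-5.26) and Cd3g (-3.67), with array means of 6.11 to 6.46 against 6.86 to 7.86. The other 4 did not pass, among them Nkg7 on the positive side (1.17, limma adjusted p = 0.158), and the list median was -0.06. Flt3, Gzma, Cd3g and Nkg7 were named here after their values were seen. Mki67 differed by -0.53 ± 0.10 (SE, adjusted p = 0.00424). Myc, at 0.03 ± 0.10 (SE, adjusted p = 0.853), and Mycn, at -0.45 ± 0.20 (SE, adjusted p = 0.105), did not pass. Mycn did pass with the mean of its probe sets (-2.12, adjusted p = 0.00352), after median subtraction (-0.70, 0.0208) and with the line number as a block (-0.57, 0.0319). It also passed without RH-RAS line 4 (0.0491) or NUP98-JARID1A line 3 (0.0211), but not under cyclic loess (-0.40, 0.149). The part of the markers in the members' differences was not tested.

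**Figure D1:**
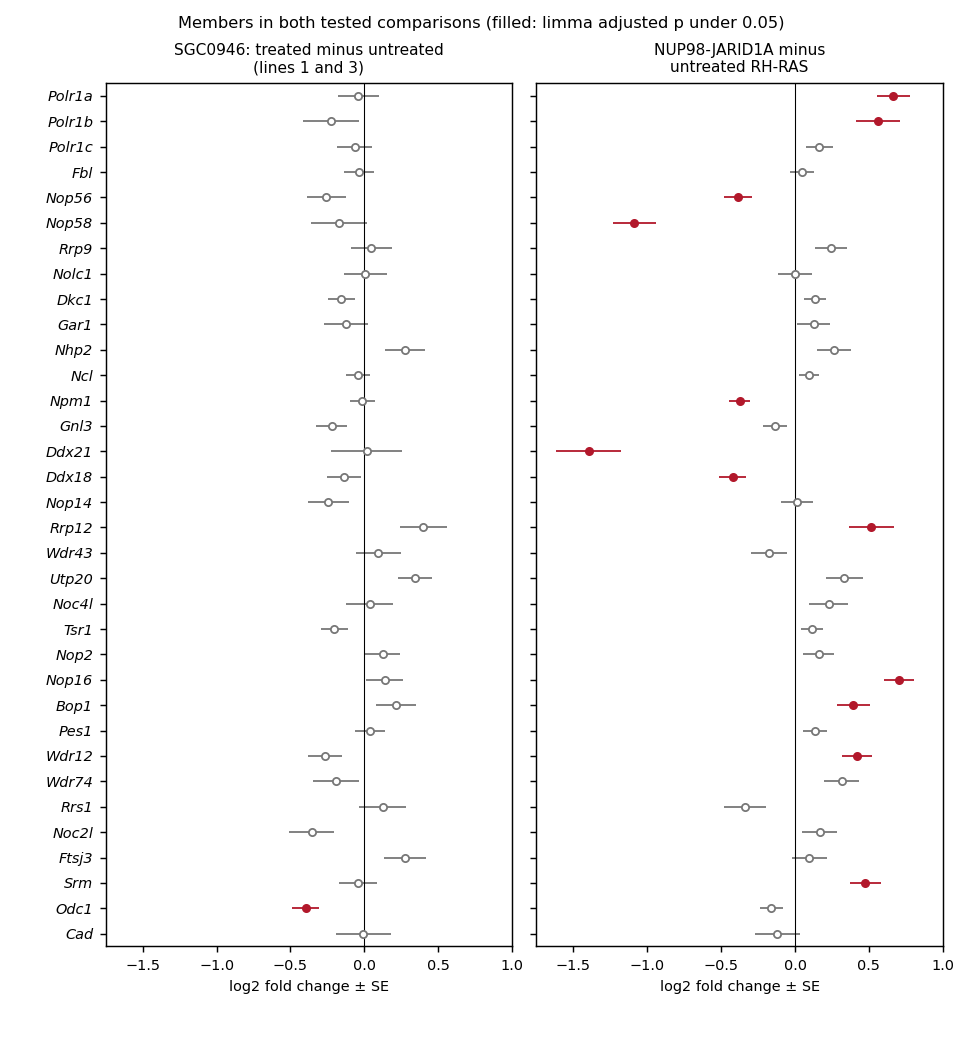
Log2 fold change (horizontal axis, point) with its standard error (bar) for the 34 members, ordered by role, after SGC0946 (left) and in NUP98-JARID1A against untreated RH-RAS lines (right). Filled red points passed the limma test at an adjusted p of 0.05: Odc1 alone on the left, and 7 higher and 5 lower on the right, with Ddx21 and Nop58 furthest to the left.

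RNA polymerase I was represented by Polr1a, its largest and catalytic subunit, Polr1b, its second largest subunit, and Polr1c, a subunit shared with RNA polymerase III. Polr1a read 9.21, 9.24, 9.25 and 9.41 in untreated RH-RAS lines 1 to 4, 9.21 and 9.17 in treated lines 1 and 3, 9.38 on the MLL-AF9 array and 9.78, 10.17 and 9.88 in NUP98-JARID1A lines 1 to 3. On this brightest probe set every NUP98-JARID1A array lay above every RH-RAS array, by 0.66 ± 0.11 on average (SE, 1.59-fold, adjusted p = 0.00216). The direction of Polr1a depended on the probe set. Its other probe sets that passed the filter were lower in NUP98-JARID1A, by -1.82 and -0.32 (limma adjusted p = 0.000285 and 0.0365). Polr1b read 8.38, 8.61, 8.52 and 8.57 in untreated RH-RAS lines 1 to 4, 8.29 and 8.16 in treated lines 1 and 3, 8.63 on the MLL-AF9 array and 9.44, 8.97 and 8.84 in NUP98-JARID1A lines 1 to 3. Its NUP98-JARID1A arrays were again all above the RH-RAS arrays (0.56 ± 0.15 SE, adjusted p = 0.016), with line 1 the highest. Subtracting the array medians left Polr1b at 0.31 (adjusted p = 0.108, range over 15 alternatives 0.011 to 0.108). Polr1c read 10.60, 10.45, 10.56 and 10.78 in untreated RH-RAS lines 1 to 4, 10.54 and 10.49 in treated lines 1 and 3, 10.28 on the MLL-AF9 array and 10.71, 10.81 and 10.77 in NUP98-JARID1A lines 1 to 3. The NUP98-JARID1A and RH-RAS values of Polr1c overlapped (0.16 ± 0.09 SE, adjusted p = 0.18), and the MLL-AF9 array was the lowest of the 10. None of them passed after SGC0946, where Polr1b stood furthest from 0 at -0.22 ± 0.19 (SE, adjusted p = 0.526).

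The snoRNP genes number 8. Nop56 and Nop58 are paired core proteins of the box C/D particles, and Fbl is the methyltransferase in them. Nop58 read 12.27, 12.25, 12.50 and 12.49 in untreated RH-RAS lines 1 to 4, 12.21 and 12.21 in treated lines 1 and 3, 12.63 on the MLL-AF9 array and 11.23, 11.61 and 11.04 in NUP98-JARID1A lines 1 to 3. The NUP98-JARID1A arrays lay far below the rest, with a mean of 11.29 ± 0.29 (SD, n = 3) against 12.38 ± 0.14 (SD, n = 4) in RH-RAS, a difference of -1.09 ± 0.15 (SE). Nop56 read 11.93, 11.91, 11.99 and 11.97 in untreated RH-RAS lines 1 to 4, 11.79 and 11.61 in treated lines 1 and 3, 12.13 on the MLL-AF9 array and 11.50, 11.76 and 11.42 in NUP98-JARID1A lines 1 to 3. It too was lower on every NUP98-JARID1A array than on any untreated RH-RAS array, by a smaller margin (-0.39 ± 0.10 SE, adjusted p = 0.0115), and the MLL-AF9 array was the highest of the 10. After SGC0946 both treated arrays of Nop56 and of Nop58 were below all 4 untreated arrays, but neither gene passed (-0.26 ± 0.13 SE, adjusted p = 0.267, and -0.17 ± 0.19 SE, adjusted p = 0.644).

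Fbl, the third of the C/D group, stayed close to 0 in both comparisons (0.05 ± 0.08 SE, adjusted p = 0.649 between lines and -0.04 ± 0.10 SE, adjusted p = 0.877 after SGC0946). Nhp2, a core protein of the box H/ACA particles that guide pseudouridylation, read 12.72, 12.75, 12.54 and 12.87 in untreated RH-RAS lines 1 to 4, 12.96 and 12.85 in treated lines 1 and 3, 13.09 on the MLL-AF9 array and 13.03, 13.13 and 12.80 in NUP98-JARID1A lines 1 to 3. It had the highest value of the snoRNP genes in both comparisons, 0.28 ± 0.13 after SGC0946 (SE, adjusted p = 0.243) and 0.27 ± 0.11 in NUP98-JARID1A (SE, adjusted p = 0.0879), and passed in neither. Dkc1 (the pseudouridine synthase of H/ACA particles), Gar1 (another core protein of them), Rrp9 (a protein of the U3 particle) and Nolc1 (a chaperone of snoRNPs) did not pass either, with values between -0.16 and 0.05 after SGC0946 and between 0.00 and 0.24 in NUP98-JARID1A.

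Abundant nucleolar proteins were represented by Npm1 (nucleophosmin, a chaperone and a gene often mutated in acute myeloid leukemia), Ncl (nucleolin) and Gnl3 (nucleostemin, a GTPase of stem and cancer cells). Npm1 read 13.91, 13.997, 13.97 and 14.07 in untreated RH-RAS lines 1 to 4, 13.91 and 13.94 in treated lines 1 and 3, 13.83 on the MLL-AF9 array and 13.64, 13.62 and 13.57 in NUP98-JARID1A lines 1 to 3. All 3 NUP98-JARID1A arrays were below all untreated RH-RAS arrays (-0.38 ± 0.07 SE, 1.30-fold, adjusted p = 0.00409), while each treated array differed from its own untreated line by 0.03 or less. Ncl read 13.45, 13.49, 13.53 and 13.52 in untreated RH-RAS lines 1 to 4, 13.45 and 13.44 in treated lines 1 and 3, 13.31 on the MLL-AF9 array and 13.62, 13.55 and 13.59 in NUP98-JARID1A lines 1 to 3. The MLL-AF9 array was the lowest of the 10 for Ncl, and the NUP98-JARID1A arrays, though above all RH-RAS arrays, differed by only 0.09 ± 0.07 (SE, adjusted p = 0.287). Gnl3 read 11.79, 11.86, 11.66 and 11.70 in untreated RH-RAS lines 1 to 4, 11.56 and 11.45 in treated lines 1 and 3, 11.84 on the MLL-AF9 array and 11.65, 11.65 and 11.54 in NUP98-JARID1A lines 1 to 3. Both treated arrays of Gnl3 were below all 4 untreated ones, by -0.22 ± 0.11 (SE, adjusted p = 0.233), which did not pass.

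On their brightest probe sets both RNA helicases were lower in NUP98-JARID1A, where 18.5% of all genes tested were lower. Other probe sets of Ddx18 gave -0.20 (limma adjusted p = 0.227) and 1.37 (0.011). The other probe set of Ddx21 gave 0.32 (0.106), so the direction depended on the probe set. Ddx21, which binds ribosomal RNA and snoRNAs and acts in RNA polymerase I transcription and RNA processing, read 10.96, 11.61, 11.41 and 11.76 in untreated RH-RAS lines 1 to 4, 11.04 and 11.36 in treated lines 1 and 3, 11.37 on the MLL-AF9 array and 10.19, 9.67 and 10.26 in NUP98-JARID1A lines 1 to 3. The RH-RAS lines differed among themselves, with line 1 lowest and line 4 highest, a spread of 0.35 (SD, n = 4) that is the largest of any member. The NUP98-JARID1A arrays were nevertheless all below them, at a mean of 10.04 ± 0.32 (SD, n = 3), and line 2 was the lowest. Ddx18, another DEAD-box helicase, read 11.25, 11.21, 11.09 and 11.31 in untreated RH-RAS lines 1 to 4, 11.06 and 11.001 in treated lines 1 and 3, 11.43 on the MLL-AF9 array and 10.81, 10.91 and 10.66 in NUP98-JARID1A lines 1 to 3. Its groups did not overlap either (-0.42 ± 0.09 SE, adjusted p = 0.00711). After SGC0946 neither helicase passed (Ddx21 0.02 ± 0.24 SE, adjusted p = 0.983; Ddx18 -0.14 ± 0.12 SE, adjusted p = 0.512).

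**Figure D2:**
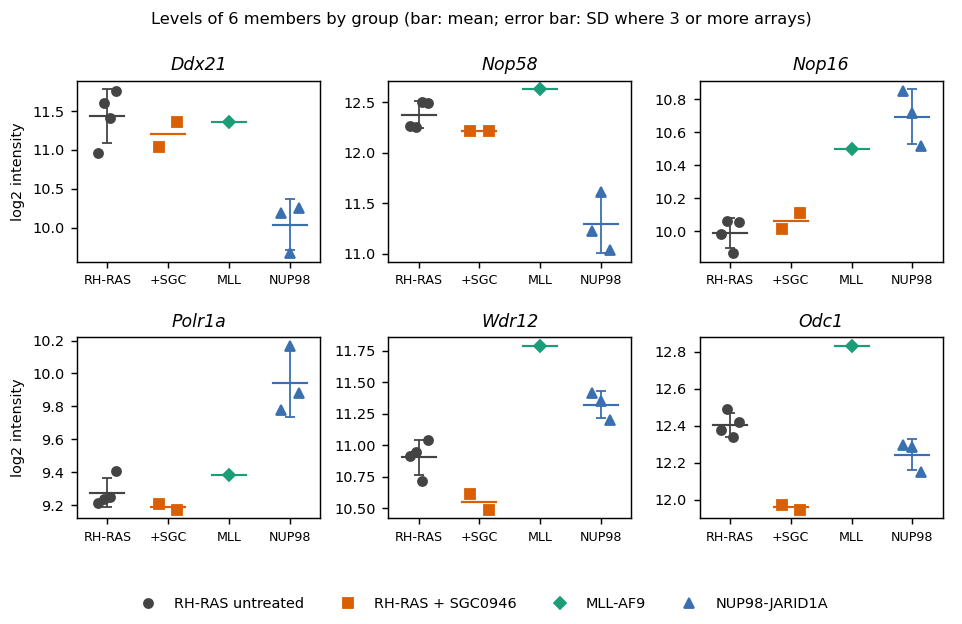
Log2 intensity (vertical axis) of 6 members in untreated RH-RAS, treated RH-RAS (+SGC), MLL-AF9 (MLL) and NUP98-JARID1A (NUP98) arrays. Each point is 1 array, horizontal lines are group means and error bars are SDs where a group has 3 or more arrays: Ddx21 and Nop58 are lowest in NUP98-JARID1A, Nop16 and Polr1a highest there, Wdr12 highest in MLL-AF9, and Odc1 lowest after SGC0946.

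Factors of the small subunit numbered 6. Rrp12, a nuclear factor needed for subunit maturation and export, read 8.03, 8.10, 7.93 and 8.54 in untreated RH-RAS lines 1 to 4, 8.39 and 8.37 in treated lines 1 and 3, 8.90 on the MLL-AF9 array and 8.64, 8.80 and 8.56 in NUP98-JARID1A lines 1 to 3. Within lines 1 and 3 it was higher after SGC0946, by 0.36 and 0.44, yet both treated values lay inside the range of the untreated lines because line 4 was high, and the test was not passed (0.40 ± 0.16 SE, adjusted p = 0.151). In NUP98-JARID1A it was higher (0.52 ± 0.15 SE, adjusted p = 0.025), but the call was lost when untreated line 1, 2 or 3 or NUP98-JARID1A line 2 was left out (adjusted p from 0.0626 to 0.0747), after median subtraction (0.179) and under cyclic loess (0.136). Nop14, a component of the early processome, read 9.46, 9.37, 9.37 and 9.37 in untreated RH-RAS lines 1 to 4, 9.23 and 9.11 in treated lines 1 and 3, 9.34 on the MLL-AF9 array and 9.59, 9.44 and 9.18 in NUP98-JARID1A lines 1 to 3. Both treated arrays were below all 4 untreated ones (-0.24 ± 0.14 SE, adjusted p = 0.331), and the NUP98-JARID1A lines spanned the RH-RAS values.

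Wdr43, another processome protein, read 10.62, 10.61, 10.60 and 10.86 in untreated RH-RAS lines 1 to 4, 10.70 and 10.71 in treated lines 1 and 3, 10.79 on the MLL-AF9 array and 10.47, 10.72 and 10.29 in NUP98-JARID1A lines 1 to 3. Its groups overlapped (-0.18 ± 0.12 SE, adjusted p = 0.265 between lines). Utp20, a large scaffold of the processome, had a value of 0.34 ± 0.11 after SGC0946 (SE, adjusted p = 0.103) and 0.33 ± 0.13 in NUP98-JARID1A (SE, adjusted p = 0.0617), and passed in neither. Tsr1, a late assembly factor, and Noc4l did not pass, at -0.20 and 0.04 after SGC0946 and 0.11 and 0.23 in NUP98-JARID1A.

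The large subunit group held 9 genes, of which 3 were higher in NUP98-JARID1A and none lower, about the 32.5% of all genes that were higher. Nop16 read 9.98, 10.06, 9.87 and 10.06 in untreated RH-RAS lines 1 to 4, 10.01 and 10.11 in treated lines 1 and 3, 10.50 on the MLL-AF9 array and 10.85, 10.72 and 10.52 in NUP98-JARID1A lines 1 to 3. NUP98-JARID1A was above every other array, at a mean of 10.70 ± 0.17 (SD, n = 3) against 9.99 ± 0.09 (SD, n = 4) in RH-RAS, and the difference of 0.70 ± 0.10 (SE) passed in all 15 alternatives, with values between 0.45 and 0.79. The MLL-AF9 array was just below it and above all RH-RAS arrays.

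Bop1, Pes1 and Wdr12 form a complex that processes the large subunit RNA. Wdr12 read 10.92, 10.94, 10.72 and 11.04 in untreated RH-RAS lines 1 to 4, 10.61 and 10.49 in treated lines 1 and 3, 11.79 on the MLL-AF9 array and 11.41, 11.35 and 11.20 in NUP98-JARID1A lines 1 to 3. The order for Wdr12 was treated, untreated, NUP98-JARID1A and MLL-AF9, with no overlap between neighbouring groups. NUP98-JARID1A passed against RH-RAS (0.42 ± 0.10 SE, adjusted p = 0.011) and SGC0946 did not (-0.27 ± 0.12 SE, adjusted p = 0.203). Bop1 read 10.13, 10.18, 9.95 and 10.22 in untreated RH-RAS lines 1 to 4, 10.24 and 10.27 in treated lines 1 and 3, 10.29 on the MLL-AF9 array and 10.64, 10.61 and 10.30 in NUP98-JARID1A lines 1 to 3. NUP98-JARID1A line 3 was only just above the highest RH-RAS array, and the difference of 0.39 ± 0.11 (SE, adjusted p = 0.0223) was lost without RH-RAS line 3 or NUP98-JARID1A line 1 or 2 (0.0561 to 0.0655) and after median subtraction (0.333). The other probe set of Bop1 was lower in NUP98-JARID1A (-1.24, limma adjusted p = 0.00144). Pes1, the third partner, did not pass (0.13 ± 0.08 SE, adjusted p = 0.214 between lines, and 0.04 ± 0.10 SE, adjusted p = 0.873 after SGC0946).

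Noc2l, a nucleolar factor of early large subunit assembly, read 10.12, 10.13, 10.13 and 10.11 in untreated RH-RAS lines 1 to 4, 9.79 and 9.75 in treated lines 1 and 3, 10.36 on the MLL-AF9 array and 10.37, 10.48 and 10.01 in NUP98-JARID1A lines 1 to 3. Its 4 untreated RH-RAS arrays agreed within 0.03, and both treated arrays were about 0.36 lower, but the test, which takes its spread from all groups, was not passed (-0.36 ± 0.15 SE, adjusted p = 0.182). Fitted on lines 1 and 3 alone it was (adjusted p = 0.0182, range over 15 alternatives 0.0182 to 0.489). With the mean of all probe sets of a gene Noc2l also passed (-0.46, adjusted p = 0.0353), and Odc1 then did not (-0.31, adjusted p = 0.0854). Rrs1, which recruits the small ribosomal RNA of the large subunit, read 11.57, 11.78, 11.76 and 12.15 in untreated RH-RAS lines 1 to 4, 11.70 and 11.89 in treated lines 1 and 3, 12.06 on the MLL-AF9 array and 11.40, 11.40 and 11.63 in NUP98-JARID1A lines 1 to 3. The RH-RAS and NUP98-JARID1A values of Rrs1 overlapped (-0.34 ± 0.14 SE, adjusted p = 0.0838). Ftsj3, an RNA methyltransferase, read 8.80, 8.93, 8.86 and 9.15 in untreated RH-RAS lines 1 to 4, 8.99 and 9.21 in treated lines 1 and 3, 8.80 on the MLL-AF9 array and 9.22, 8.99 and 8.88 in NUP98-JARID1A lines 1 to 3. It passed neither test (0.27 ± 0.14 SE, adjusted p = 0.282 after SGC0946, and 0.10 ± 0.12 SE, adjusted p = 0.529 between lines). Nop2, another RNA methyltransferase, and Wdr74 did not pass, at 0.12 and -0.19 after SGC0946 and 0.16 and 0.31 in NUP98-JARID1A.

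Enzymes of polyamine and pyrimidine synthesis supply growing cells. Odc1 read 12.38, 12.49, 12.34 and 12.42 in untreated RH-RAS lines 1 to 4, 11.97 and 11.95 in treated lines 1 and 3, 12.83 on the MLL-AF9 array and 12.30, 12.29 and 12.15 in NUP98-JARID1A lines 1 to 3. On this probe set the treated arrays were the lowest of all and did not overlap any other group. Their changes were -0.41 in line 1 and -0.39 in line 3, and the MLL-AF9 array was the highest. The call was close to the threshold, since without a filter on low intensity the adjusted p was 0.0502. Another 2 probe sets of Odc1 gave -0.27 and -0.26 and did not pass. On the first of these the NUP98-JARID1A lines (10.78, 9.945 and 11.03) lay below the treated arrays (11.52 and 11.96). On the second they overlapped (9.17, 9.46 and 8.87 against 9.55 and 9.42). Srm, spermidine synthase, which acts after Odc1, read 12.02, 12.001, 11.84 and 12.18 in untreated RH-RAS lines 1 to 4, 11.96 and 11.81 in treated lines 1 and 3, 12.63 on the MLL-AF9 array and 12.62, 12.45 and 12.38 in NUP98-JARID1A lines 1 to 3. It was higher in NUP98-JARID1A (0.48 ± 0.11 SE, 1.39-fold, adjusted p = 0.00739) and did not pass after SGC0946 (-0.04 ± 0.13 SE, adjusted p = 0.893). Cad, which starts pyrimidine synthesis, read 10.18, 10.28, 10.22 and 10.45 in untreated RH-RAS lines 1 to 4, 10.16 and 10.22 in treated lines 1 and 3, 10.47 on the MLL-AF9 array and 10.48, 10.14 and 9.86 in NUP98-JARID1A lines 1 to 3. Its NUP98-JARID1A lines spread more widely than the RH-RAS lines, and it passed in neither comparison (adjusted p = 0.541 and 0.991).

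**Figure D3:**
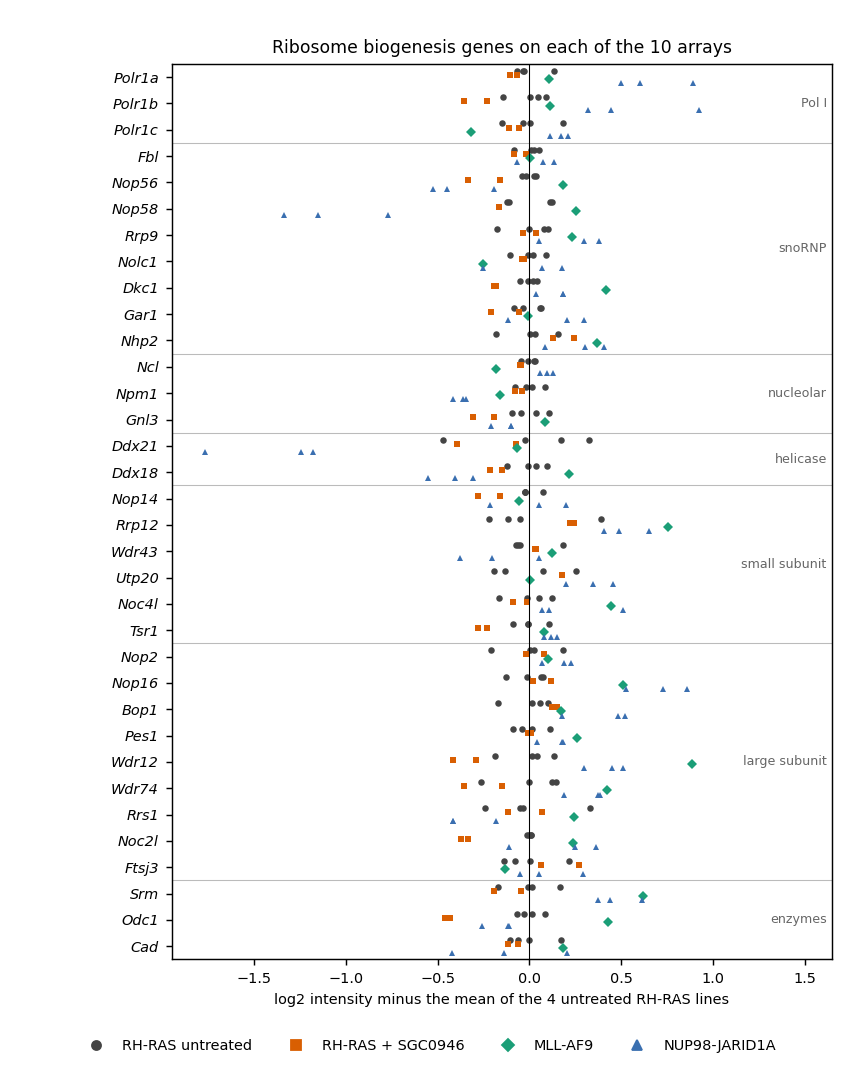
Log2 intensity of each of the 34 members on each of the 10 arrays, minus the mean of the 4 untreated RH-RAS lines (horizontal axis), grouped by role. Grey circles are untreated RH-RAS, orange squares treated RH-RAS, green diamonds MLL-AF9 and blue triangles NUP98-JARID1A: the triangles of Ddx21 and Nop58 lie far to the left, and the diamonds of Wdr12, Rrp12 and Srm lie to the right.

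Several members had other probe sets on the array, and in NUP98-JARID1A these often gave another answer. Of 70 member probe sets 67 passed the filter, and 22 members had more than 1. In 15 of the 22 the NUP98-JARID1A difference had both signs among the probe sets of the gene, and in 5 (Bop1, Cad, Ddx18, Noc4l and Polr1a) probe sets passed in opposite directions. The same shares were not computed over all genes with several probe sets, so these counts are not a result particular to the members. Polr1a gave 0.66 on its brightest probe set and -1.82 (adjusted p = 0.000285) and -0.32 (adjusted p = 0.0365) on the others. Bop1 gave 0.39 and -1.24 (adjusted p = 0.00144). Ddx18 gave -0.42, -0.20 and 1.37 (adjusted p = 0.011 for the last), and Wdr12 0.42 and -0.19 (adjusted p = 0.305 for the second). The brightest probe set of Ddx21 gave -1.40 and its other one 0.32 (adjusted p = 0.106).

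Discordant probe sets also reached members that had not passed. Ncl had one at -1.05, Dkc1 one at -1.39 and Noc2l one at -1.27, each with an adjusted p of 0.00037 or lower. All 3 probe sets of Odc1 were on the negative side, at -0.16, -1.63 and -0.62, and the last pair passed. The calls of Npm1 had the same direction in both of its probe sets (-0.38 and -0.25, both passed). So did those of Nop56 (-0.39 and -0.25, adjusted p = 0.013 and 0.117 in the fit of probe sets, the second not passed). Nop16 kept its direction too (0.70 and 0.27, the second not passed). Nop58, Srm, Polr1b and Rrp12 had 1 probe set each. By the array's naming, the brightest probe sets of Cad, Fbl, Gar1, Nhp2, Noc4l and Tsr1 may read transcripts of more than 1 gene, and that of Rrs1 may cross-hybridise, so these values are less certain.

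**Figure D4:**
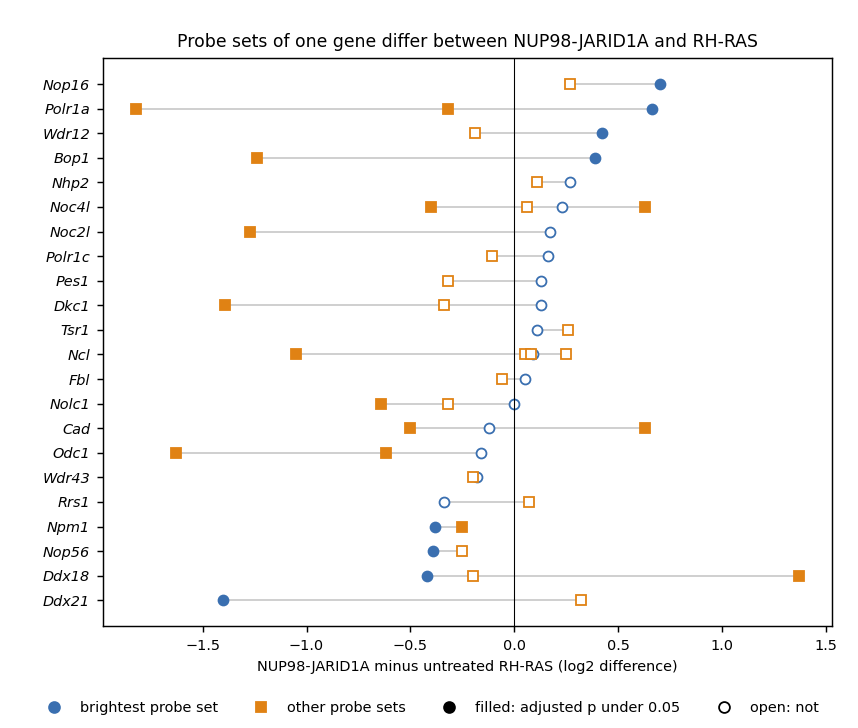
Difference between NUP98-JARID1A and untreated RH-RAS lines (log2, horizontal axis) for every probe set of the 22 members that had more than 1. Blue circles are the brightest probe set, orange squares the others, filled where the adjusted p was under 0.05: in Polr1a, Bop1, Ddx18 and Ddx21 the probe sets lie on both sides of 0.

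The MLL-AF9 line was set against the range of the other lines, with no test since it has 1 array. It lay above the range of the 4 untreated RH-RAS lines in 18 of 34 members (52.9%) and below it in 5 (14.7%), where 44.6% of all genes tested lay above and 31% below. The median difference from the RH-RAS mean was 0.18 in the members and 0.07 in all genes. Wdr12 was furthest above (0.89), followed by Rrp12 (0.75), Srm (0.62), Nop16 (0.51), Noc4l (0.44) and Odc1 (0.43). Below the range were Polr1c (-0.32), Nolc1 (-0.25), Ncl (-0.18), Npm1 (-0.16) and Nop14 (-0.06). No member differed by 1 or more. On the same array late neutrophil markers averaged 9.99 against 4.59 to 4.76 in RH-RAS, T and NK markers 6.23 against 6.86 to 7.86 and proliferation markers 11.66 against 11.95 to 11.98, and their part in the members' differences was not tested.

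Against the range of the 3 NUP98-JARID1A lines, MLL-AF9 was above in 15 members (44.1%, background 32.3%) and below in 9 (26.5%, background 38.1%). On the brightest probe sets the 2 largest gaps were in Nop58 (1.34) and Ddx21 (1.33), the members furthest below RH-RAS in NUP98-JARID1A. On the other probe set of Ddx21 the MLL-AF9 array (9.69) lay below the NUP98-JARID1A lines (10.14, 10.22 and 9.78). All 3 RNA polymerase I genes were below the range on their brightest probe sets. Polr1a differed by -0.56 from the mean, Polr1c by -0.49 and Polr1b by -0.45. For Polr1a this depended on the probe set. Its other probe sets that passed the filter put MLL-AF9 (8.84 and 7.65) above every NUP98-JARID1A line (highest 6.92 and 7.45). The other Polr1c probe set kept MLL-AF9 (10.13) below the NUP98-JARID1A lines (lowest 10.41). Of the members, 17 had their highest group mean in MLL-AF9, 13 in NUP98-JARID1A, 3 in untreated RH-RAS and 1 after SGC0946. The lowest group mean was in treated RH-RAS for 14, in untreated RH-RAS and in NUP98-JARID1A for 8 each, and in MLL-AF9 for 4. These orders were not counted over all genes tested, so whether they differ from the background is not known. MLL-AF9 also has only 1 array, where the other groups are means of several.

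Lines of one group also differed from each other across many members. Untreated RH-RAS line 4 lay above the range of lines 1 to 3 in 21 of 34 members (61.8%) and below it in 2 (5.88%, Nop14 and Noc2l, by 0.03 or less), where 33.2% of all genes lay above and 30.2% below. Rrp12 (0.52), Rrs1 (0.44), Ddx21 (0.43) and Utp20 (0.34) had the largest differences from the mean of lines 1 to 3, and the median was 0.13 in the members and 0.01 in all genes. Line 3 was the lowest of the 4 in 21 members, and 27.1% of all genes had that order. Among the NUP98-JARID1A lines, line 3 was lowest in 28 members (82.4%), an order seen in 34.5% of all genes tested. Averaged over the 34 members, the arrays read 10.89, 10.94, 10.84 and 11.04 in untreated lines 1 to 4, 10.85 and 10.82 in treated lines 1 and 3, 11.11 in MLL-AF9 and 11.04, 11.05 and 10.86 in NUP98-JARID1A lines 1 to 3. The range of the 4 untreated lines thus held every array but treated line 3, MLL-AF9 and NUP98-JARID1A line 2.

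A further 114 genes of ribosome biogenesis and RNA polymerase I were followed as a list. After SGC0946, 2 of the 114 fell and none rose (1.75% and 0%), where 5.12% of all genes fell and 6.84% rose, and the median was -0.01 against 0.02 in all genes. Those that fell were Taf1d, a subunit of the promoter selectivity factor of RNA polymerase I, by 0.61 ± 0.13 (SE, adjusted p = 0.0283), and Utp4, a small subunit processome protein, by 0.39 ± 0.10 (SE, adjusted p = 0.0437, 0.0697 with the block). The call of Taf1d was lost without any of the arrays of lines 1 and 3 (adjusted p from 0.0744 to 0.162), and that of Utp4 without any RH-RAS array, treated or untreated (0.0582 to 0.272). Taf1a, another subunit of the same factor, stood at -0.51 ± 0.21 (SE, adjusted p = 0.171), and the highest values were those of Utp23 (0.39), Heatr1 (0.37) and Bysl (0.36), none of which passed.

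Between NUP98-JARID1A and RH-RAS, 42 of the 114 were higher and 19 lower (36.8% and 16.7%), close to the 32.5% and 18.5% of all genes tested, and the median was 0.10 in the list and in all genes. Xrn2, an exonuclease that trims ribosomal RNA precursors, was lowest, at 9.07 against 11.16 in RH-RAS (-2.09 ± 0.15 SE, adjusted p = 5.88e-05), followed by Nol8 (-1.46) and Nmd3, the export adaptor of the large subunit (-0.82). Highest were Rrp36 (1.06 ± 0.09 SE, adjusted p = 0.000115), Znrd1, a small subunit of RNA polymerase I (0.91), and Noc3l (0.91). With the mean of all probe sets of a gene, Xrn2 stood at -0.97, Nol8 at -0.70, Nmd3 at -1.03 and Noc3l at 0.64. Rrp36 and Znrd1 kept their values. On the MLL-AF9 array 67 of the 114 were above the RH-RAS range and 19 below, where 44.6% of all genes were above and 31% below. Against the NUP98-JARID1A range 51 were above and 37 below, with 32.3% and 38.1% of all genes. Untreated line 4 was above lines 1 to 3 in 69 of the 114 and below in 10, where 33.2% of all genes were above and 30.2% below, and the median was 0.12 against 0.01 in all genes.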

How the data were processed

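RNA from cultured leukemia stem cell lines was measured on 10 Affymetrix mouse arrays in the 4 groups of the labels. The deposited log2 intensities, 1 for each probe set, were made by the authors with RMA, per the submitters' processing notes. RMA corrects background, normalises quantiles and summarises probes. The sources used here do not give its version or scan dates, and batches were therefore not modelled. Each array held 45101 probe sets (64 controls), with medians from 5.72 to 5.824. The annotation gave 34958 probe sets 1 gene symbol, 932 several, and did not list 9211. Of the first, 99.4% matched the RefSeq gene table.

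The brightest probe set (highest mean) stood for a gene, which was tested where 2 or more arrays had it above their median. Fits used limma 3.58.1 in R 4.3.3 with Benjamini-Hochberg adjustment over the 11993 genes and a threshold of 0.05, after the code was tested on simulated data. SGC0946 was fitted on all 10 arrays with 5 coefficients, as treated minus untreated lines 1 and 3, and the other groups entered its spread. NUP98-JARID1A was set against untreated RH-RAS in the 8 arrays without inhibitor. MLL-AF9 and line 4 were compared by range, with no test. Treated and untreated arrays of the same number come from the same line, and their deviations from the group means correlated at 0.292. Independent derivation is stated for RH-RAS but not for NUP98-JARID1A lines, so p-values there measure the spread between these samples, which may be technical. The number of arrays limits precision.

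Members, roles and lists were chosen with earlier results of these data known. A member is given array by array where it passed a test or had the highest or lowest change of its role group. Of the other pathway genes the 3 largest changes each way are named, and Myc, Mycn, Mki67 and Kit always. Alternatives covered the probe set choice, filter, centring, cyclic loess, variance model, arrays fitted, replicate block and each array left out. The fit of every other probe set was added after seeing the data.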

Additional observations from a re-analysis of the deposited data

Results flagged for a closer look

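In the untreated RH-RAS group, a single line stood away from the other three in 2 of the 34 members examined, and chance gives such a gap in about 1 in 20 groups. At that rate 2 of 34 is near what chance gives, and the same count over all genes is not given here. Nop14 read 9.46 in line 1, where the nearest other line read 9.37 and the lowest 9.36. Wdr43 read 10.86 in line 4, where the nearest other line read 10.62 and the lowest 10.60. The gap was 0.962 of the whole range in Nop14 and 0.919 in Wdr43. Neither gene passed a main test, though Wdr43 was lower in NUP98-JARID1A after median subtraction (-0.43, limma adjusted p = 0.0236).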

How the results depend on the processing

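After SGC0946 the main count was 0 higher and 1 lower. Without a filter and with the replicate block it was 0 lower, so 0 in all. Fitting lines 1 and 3 alone gave 2 higher, 2 lower and 4 in all (Rrp12, Utp20, Noc2l and Odc1), since the spread then came from those arrays alone. All genes then gave 2031 higher and 1715 lower. With the mean of probe sets the count stayed at 1, but the gene was Noc2l in place of Odc1. Leaving out 1 array gave 0 to 1, with 0 without any of the 4 arrays of lines 1 and 3, where the lone remaining array is assumed to vary like the other groups. Over all genes, the replicate block gave 502 higher and 364 lower in place of 820 and 614.

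In NUP98-JARID1A, 7 higher and 5 lower became 4 and 8 with the mean of all probe sets and 2 and 9 after median subtraction. All genes went from 3897 higher and 2216 lower to 3472 and 2534 with the mean, and to 2344 and 4306 after subtraction. The mean of probe sets turned Bop1 (-0.42), Polr1a (-0.23), Dkc1 (-0.53), Ddx18 (0.25) and Noc2l (-0.55). Single other probe sets, added after seeing the data, turned Bop1 (-1.24), Cad (0.63), Ddx18 (1.37), Ddx21 (0.32), Dkc1 (-1.39), Ncl (-1.05), Noc2l (-1.27), Noc4l (-0.40), Polr1a (-1.82 and -0.32) and Wdr12 (-0.19). The cause was not tested. Line numbers are only shared numbers here: deviations of same-numbered lines correlated at -0.054, -0.019 and 0.07, 1 of 3 best with its own number, and the replicate block left 11 members called in place of 12. All genes with the block gave 3213 higher and 1725 lower. Changes of sign in values that passed in neither setting (72) were not counted as reversals. After median subtraction, MLL-AF9 was below the NUP98-JARID1A range in 5 members in place of 9 and above it in 22 in place of 15 (20 with the mean of probe sets), and line 4 below lines 1 to 3 in 1 in place of 2. Relative to RH-RAS, the subtraction lowered all genes by 0.252 in NUP98-JARID1A and by 0.092 in MLL-AF9. Shares over all genes are not given for these settings, so these counts are not a result about the members. RMA itself could not be repeated on these values, which carry no probe intensities.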
